A study of Mus musculus with 4 samples.

Results

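The imprinted cluster of distal mouse chromosome 7 was followed through 7 genes, *H19*, *Igf2*, *Kcnq1ot1*, *Cdkn1c*, *Phlda2*, *Slc22a18* and *Tssc4*, taken by their gene names from the 56883 genes of the table. Of these, 2 make long noncoding RNAs (*H19* and *Kcnq1ot1*) and 5 make proteins. Basal telencephalon of E14.5 embryos was dissociated, tdTomato-fluorescent cells were sorted by FACS, and RNA was sequenced from 2 control and 2 *Dnmt1* KO libraries. Control embryos were *Sst-Cre/tdTomato* and KO embryos *Sst-Cre/tdTomato/Dnmt1 loxP2*. Both genotypes carried the Cre recombinase driven by the somatostatin gene (*Sst*), which acts in postmitotic SST+ interneurons as they leave the ganglionic eminence, and a Cre-dependent tdTomato reporter at the *ROSA26* locus. The KO embryos carried in addition the floxed *Dnmt1* allele, which came from a mixed B6;129S strain, and all lines were kept on a C57BL/6J background. Cells of several embryos were pooled for each library and embryo sex was not distinguished, which leaves the variation of single embryos unmeasured.

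Genomic imprinting limits the expression of a gene to the copy inherited from one parent, and the choice is kept by DNA methylation at imprinting control regions, which DNMT1 copies at each round of DNA replication. In the *H19*-*Igf2* domain, the maternal copy expresses the noncoding RNA *H19* and the paternal copy expresses *Igf2*, a growth factor, and both draw on shared enhancers whose access is set by CTCF bound to the unmethylated control region. In the neighbouring domain, the paternal copy expresses *Kcnq1ot1*, a long antisense RNA from an intron of *Kcnq1* that silences in cis *Cdkn1c* (the CDK inhibitor p57, which drives exit from the cell cycle), *Phlda2* (a growth-restraining protein of the placenta), *Slc22a18* (a transporter) and *Tssc4* (a splicing cofactor). The counts summed both parental copies, so a higher level does not tell which copy was expressed.

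The sequences below show the start of *Kcnq1ot1* beside the starts of a target that was readily detected in these cells (*Tssc4*) and one with a single read over all libraries (*Phlda2*). Each runs 5′ to 3′ on the strand of the gene from 250 bases before to 50 after its start, and capitals mark CG dinucleotides, the site of DNA methylation. RefSeq windows of build GRCm38.p6 were found for 5 of the 7 genes, with *Igf2* holding 4 of the 8 windows. *H19* and *Cdkn1c* had no window.
Kcnq1ot1, chr7:143296498-143296797, minus strand: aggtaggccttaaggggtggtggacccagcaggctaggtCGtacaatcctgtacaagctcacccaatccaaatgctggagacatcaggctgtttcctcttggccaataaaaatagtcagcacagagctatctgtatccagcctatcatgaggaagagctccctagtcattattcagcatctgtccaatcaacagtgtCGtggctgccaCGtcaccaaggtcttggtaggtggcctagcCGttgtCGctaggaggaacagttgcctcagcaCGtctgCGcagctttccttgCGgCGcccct
Tssc4, chr7:143069118-143069417, plus strand: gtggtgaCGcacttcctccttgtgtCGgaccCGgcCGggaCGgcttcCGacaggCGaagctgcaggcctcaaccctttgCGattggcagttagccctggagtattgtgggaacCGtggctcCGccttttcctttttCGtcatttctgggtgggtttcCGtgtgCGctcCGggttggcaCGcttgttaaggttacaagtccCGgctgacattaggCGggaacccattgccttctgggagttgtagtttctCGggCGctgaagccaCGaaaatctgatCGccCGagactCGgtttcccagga
Phlda2, chr7:143502475-143502774, minus strand: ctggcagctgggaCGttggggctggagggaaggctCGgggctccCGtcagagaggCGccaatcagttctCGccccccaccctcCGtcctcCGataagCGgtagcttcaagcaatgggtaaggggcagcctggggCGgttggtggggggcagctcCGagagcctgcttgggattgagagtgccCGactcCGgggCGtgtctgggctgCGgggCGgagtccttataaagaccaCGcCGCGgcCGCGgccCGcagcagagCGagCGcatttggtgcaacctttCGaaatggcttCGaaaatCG
The *Kcnq1ot1* window held 9 CG dinucleotides, against a median of 7 over 32851 promoter windows of the same length. *Phlda2* held 26 and *Tssc4* 23, more than 83.1% and 78.5% of all windows. The 4 *Igf2* windows held 2, 14, 24 and 7, and the *Slc22a18* window held 2. The *Kcnq1ot1* window also held the motif CCAAT 3 times on the strand of the gene, beginning 188, 148 and 67 bases before the start, with both strands searched. This motif was picked after the window had been read. At least 1 copy occurred in 37.4% of all windows and at least 3 in 3.37%. TGCCGC, the motif of the imprint-protecting factor ZFP57, lay in 1 *Igf2* window (11.6% of all windows hold it on either strand). GGNGGCAG, taken here as the core of the CTCF motif, lay in 1 *Igf2* window and in that of *Phlda2* (12.6% of all windows). Neither lay in the *Kcnq1ot1* window.

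*H19* is also the host of a microRNA, miR-675, whose mature forms are shown with the seed (bases 2 to 8) in capitals because the host transcript was measured here and the microRNA was not. The *Mir675* gene was listed at 0 in all 4 libraries.
mmu-miR-675-5p: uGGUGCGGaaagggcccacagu
mmu-miR-675-3p: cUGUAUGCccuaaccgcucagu
The 5p and 3p seeds differ. *Mir483*, hosted by *Igf2*, was likewise listed at 0 in every library, and a library of total RNA is not made to hold RNAs of this length.

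Values are normalized counts, that is, gene totals estimated by Salmon, whole in this table, divided by 1 scaling factor per library. These totals are called reads below, and intervals on them treat the estimates as counted reads. The libraries held 6970247 to 8376711 reads in genes. A log2 fold change is the difference of *Dnmt1* KO from control on log2(normalized count + 1), tested with limma over 14323 genes with a mean of at least 10, and a gene was called at a Benjamini-Hochberg adjusted p below 0.05. Over all genes tested, 8.3% were called higher and 8.99% lower in *Dnmt1* KO cells, together 17.3%. The targeted gene *Dnmt1* had normalized counts of 2238 and 2341 in control and 2164 and 2210 in KO libraries, a log2 fold change of -0.07 (limma adjusted p = 0.461). The gene-level count takes in exons outside the floxed part, so it did not check the labels. *Sst* was present in every library, at 5580 and 5963 in control and 8303 and 7825 in KO libraries.

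Within the cluster the noncoding RNA of one domain rose and both genes of the other fell. *Kcnq1ot1* was higher in *Dnmt1* KO cells by 0.55 ± 0.10 on the log2 scale (moderated SE of limma, n = 2 libraries per genotype). *Igf2* fell by 0.92 ± 0.18 and *H19* fell by 0.44 ± 0.11, while *Cdkn1c* and *Tssc4* were not called. Such an SE, like limma's intervals and p-values, draws on the spread of all genes tested besides that of the gene's own libraries. Of the 7 genes, 5 passed the filter on low counts, and of these 1 was called higher and 2 lower. In all 5 the libraries of the genotypes did not overlap, as was the case for 57.4% of all genes tested. *Phlda2* and *Slc22a18* were not tested.

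**Figure D1:**
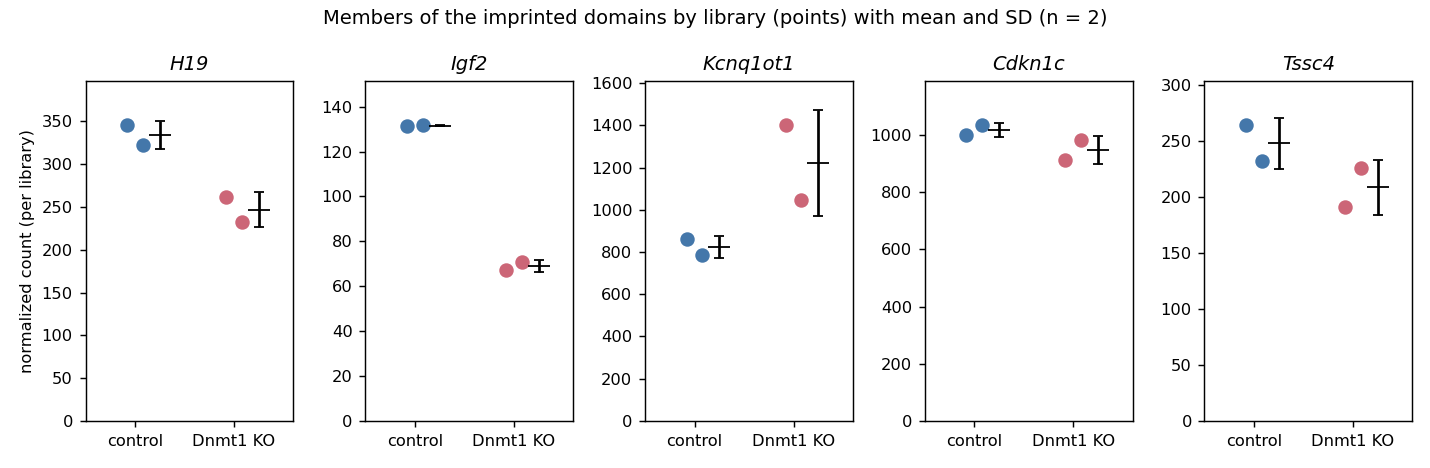
Normalized counts of the 5 tested genes, with 1 point per library (control in blue, *Dnmt1* KO in red) and the mean ± SD of n = 2 beside them, each y axis starting at 0. The KO libraries of *Kcnq1ot1* lie above and those of the other 4 genes below the control libraries, and the points of *Kcnq1ot1* in KO cells, 1400 and 1045, lie farthest apart.

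*Kcnq1ot1* (ENSMUSG00000101609, GRCm39 chr7:142731402-142850327, minus strand) had normalized counts of 862 and 786 in control and 1400 and 1045 in KO libraries. Both KO libraries lay above both controls, and KO replicate 1 stood well above KO replicate 2. The mean went from 824 ± 53.5 to 1222 ± 251 (SD, n = 2), 1.47-fold on the log scale, with a 95% interval of the log2 fold change of 0.33 to 0.78 (limma adjusted p = 0.00183). The size rested on the KO library used, since the log2 fold change was 0.34 without KO replicate 1 and 0.77 without KO replicate 2, and it was called in both cases. DESeq2 on the recovered reads of the filtered genes called 1327 genes, or 10.5% of those it gave an adjusted p. It estimated 0.57 for *Kcnq1ot1* (adjusted p = 0.0645), and 0 of the genes followed here were higher and 1 was lower. Run on all genes with a read, a choice made after seeing the data, DESeq2 again gave 0.57 (adjusted p = 0.000358). The study, by its own DESeq2 test of these cells, lists *Kcnq1ot1* as increased. From a separate methyl-sequencing experiment on such sorted cells, it reports sites of both lost and gained DNA methylation in this gene. It also names the gene among those with a DNMT1 binding motif, which was found by ChIP-seq in a cerebellar cell line.

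The length of *Kcnq1ot1* set it apart from nearly every other gene. Its longest annotated transcript has 93092 bases, and among the 14285 tested genes found in the annotation only *Nopchap1* and *Ttn* had a longer one. The genotype difference moved with transcript length and GC content across all genes, and the fitted trend reached 0.48 at the length and GC content of *Kcnq1ot1*. With each library's trend removed, its log2 fold change was 0.08 (limma adjusted p = 0.608). The trend had few genes to rest on at this length, and the 2 longer ones differed. *Nopchap1* had a log2 fold change of 0.49 (called higher) and *Ttn* one of -0.37 (not called). Lengths were those of the longest transcript. The median *Kcnq1ot1* transcript has 2127.5 bases, and removal of a trend over median lengths was not run. After that step 18.2% of all genes were called, and 0 of the genes followed here were higher and 1, *Igf2*, was lower. The part of transcript length in the *Kcnq1ot1* difference was not tested further.

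*Kcnq1ot1* lies in full, over 118926 bases, inside *Kcnq1* (chr7:142660099-142980788, plus strand), a potassium channel gene read from the opposite strand. *Kcnq1* had 2 and 3 reads in the control libraries and 0 in both KO libraries. The kit kept strand, but the strand setting of the counting is not given in the sources used here, so reads of the overlapping pair are assigned with that uncertainty. The same holds for *Tssc4*, which shares 1941 bases with *Trpm5*, and for *Igf2*, which shares 7265 bases with *Igf2os*. *Igf2os* had 1 read in all, in KO replicate 2.

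Of the genes listed above as targets of *Kcnq1ot1*, the 2 that could be tested were not called in either direction. Whether *Kcnq1ot1* silences either of them in these cells was not tested. *Cdkn1c* (ENSMUSG00000037664, chr7:143012069-143014806, minus strand), which starts 164 kb from the *Kcnq1ot1* start, had normalized counts of 1001 and 1034 in control and 913 and 983 in KO libraries. The KO values were slightly lower and did not overlap with the controls, and the log2 fold change was -0.10 with a 95% interval of -0.25 to 0.05 (limma adjusted p = 0.362). *Tssc4* (ENSMUSG00000045752, chr7:142622865-142624830, plus strand), 227 kb from the *Kcnq1ot1* start on the other side, had 264 and 232 in control and 191 and 226 in KO libraries. KO replicate 2 lay close below the controls, and the log2 fold change was -0.25 with a 95% interval of -0.53 to 0.03 (limma adjusted p = 0.218). *Phlda2* (ENSMUSG00000010760, chr7:143055282-143056887, minus strand) had a single read, in control replicate 1, which is a share of 0.119 RPM, reads scaled to the library's total in genes (exact Clopper-Pearson 95% interval 0.00302 to 0.665). *Slc22a18* (ENSMUSG00000000154, chr7:143027466-143053072, plus strand) had 0 reads in every library, which at a floor of 3 reads per library, a one-sided limit, allows up to 0.358 to 0.43 RPM. These intervals and limits cover counting error only. The promoter of *Phlda2* printed above, rich in CG dinucleotides, thus belonged to a gene at the edge of detection in both genotypes.

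Set beside the genes of its domain within each library, *Kcnq1ot1* shifted from below *Cdkn1c* in normalized counts to above it. The ratio of *Kcnq1ot1* to *Cdkn1c* was 0.861 and 0.76 in control and 1.53 and 1.06 in KO libraries. On the log2 scale the ratio was higher by 0.66 in KO cells, and by 0.047 once the length and GC trend had been removed. The ratio to *Tssc4* was 3.26 and 3.39 in control and 7.31 and 4.62 in KO libraries, higher by 0.80 on the log2 scale and by 0.173 without that trend. *H19* over *Igf2* was 2.63 and 2.45 in control and 3.90 and 3.28 in KO libraries, higher by 0.49, and by 0.48 without the trend. In these 3 ratios the genotypes did not overlap, and the exact two-sided permutation p was 0.333, the smallest that 2 against 2 libraries can give. *Cdkn1c* over *Tssc4*, the ratio of one target to another, was 3.79 and 4.46 in control and 4.77 and 4.35 in KO libraries. These values overlapped (exact two-sided permutation p = 0.667, log2 difference 0.15).

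**Figure D2:**
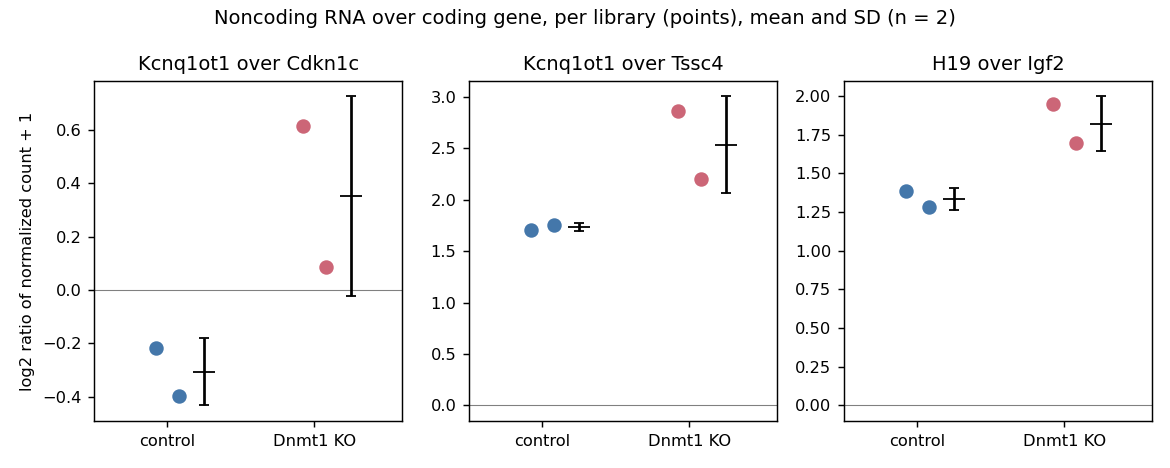
Log2 ratio of 1 gene to another (normalized count + 1) in each library, with control in blue, *Dnmt1* KO in red and the mean ± SD of n = 2 beside the points. *Kcnq1ot1* over *Cdkn1c* lies below 0 in both control libraries and above 0 in both KO libraries, and *H19* over *Igf2* is higher by 0.49 on average. With the trend over transcript length and GC content removed, the difference for *Kcnq1ot1* over *Cdkn1c* is 0.047 in place of 0.66.

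In the *H19*-*Igf2* domain both genes fell, the growth factor by more than the noncoding RNA. *Igf2* (ENSMUSG00000048583, chr7:142204503-142220694, minus strand) had normalized counts of 131.5 and 131.7 in control and 67.1 and 71.0 in KO libraries. The replicates of each genotype nearly coincided and the KO libraries held 52.5% of the control mean. The 95% interval of the log2 fold change was -1.30 to -0.54 (limma adjusted p = 0.00221), and *Igf2* was called with any of the 4 libraries left out. These counts came from 147, 129, 68 and 65 reads, and the 65 reads of KO replicate 2 stand for 9.33 RPM (exact Clopper-Pearson 95% interval 7.20 to 11.9).

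*H19* (ENSMUSG00000000031, chr7:142129262-142133957, minus strand), whose start lies 70.5 kb from the near end of *Igf2*, had 345 and 323 in control and 261 and 233 in KO libraries. The genotypes did not overlap, and the KO mean was 74.0% of the control mean, with a 95% interval of the log2 fold change of -0.67 to -0.20 (limma adjusted p = 0.0142). The direction of *H19* was the same in every setting tried, but its call was not. It was lost without control replicate 1 (limma adjusted p = 0.0972), without KO replicate 2 (0.0858), under DESeq2 (0.0963) and once the length and GC trend had been removed (0.0587).

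**Figure D3:**
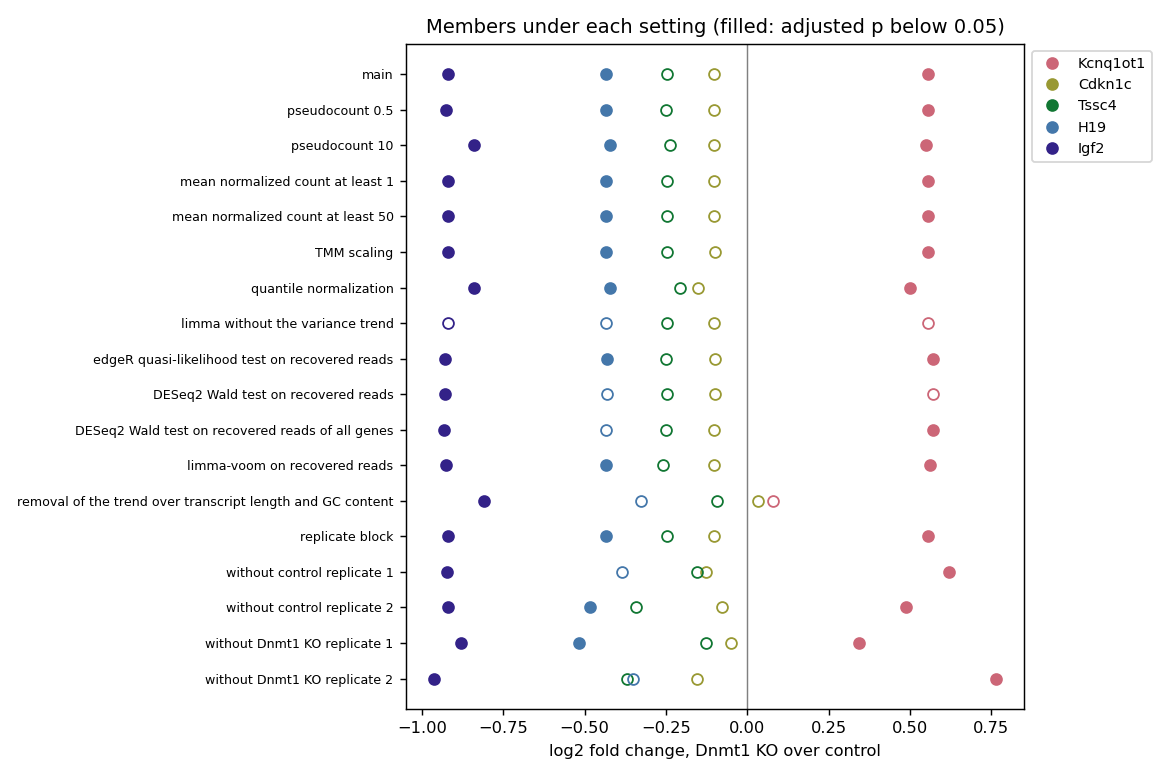
Log2 fold change of the 5 tested genes as reported here (top line) and under each other setting (lines below), with filled points where the adjusted p was below 0.05. *Igf2* stays between -0.96 and -0.81, while *Kcnq1ot1* moves from 0.55 to 0.08 when the trend over transcript length and GC content is removed.

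Markers of other cell types moved with *H19* and *Igf2*. Summed normalized counts of 10 endothelial markers went from between 600.3 and 602 in control to between 243 and 263 in KO libraries, 42.1% of the control mean, with 8 of the 9 tested called lower and 0 higher. *Cdh5*, the cadherin of vessel junctions, fell by 1.72 on the log2 scale and *Pecam1* by 1.27. Mural cell markers stood at 51.6% of control (573 to 575 against 275 to 318, 4 of 7 lower), meningeal and fibroblast markers at 50.02% (255 to 261 against 127 to 131, 3 of 5 lower) and choroid plexus markers at 46.9% (211 to 230.0 against 97.7 to 109, 2 of 4 lower). Erythroid markers stood at 23.4% (2434 to 2615 against 587 to 593, 8 of 8 lower), with *Gata1* at 0 in every library and the embryonic globin *Hbb-y* at a log2 fold change of -3.44. Markers of microglia and macrophages stood at 32.7% (137 to 153 against 42.4 to 52.4, 3 of 5 lower) and those of radial glia and dividing progenitors at 63.7% (14865 to 14891 against 9408 to 9560.2, 10 of 13 lower and 1 higher). The progenitor marker called higher was *Sox2* (log2 fold change 0.40, limma adjusted p = 0.00048). All 13 interneuron markers were called higher, and their sum was 25363 to 25370.3 in control and 37685 to 38314 in KO libraries. The shares called over all genes tested were 8.3% higher and 8.99% lower. The part of these cells in the levels of *H19* and *Igf2* was not tested, and in such bulk samples fewer cells of a type cannot be told apart from less RNA per cell.

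**Figure D4:**
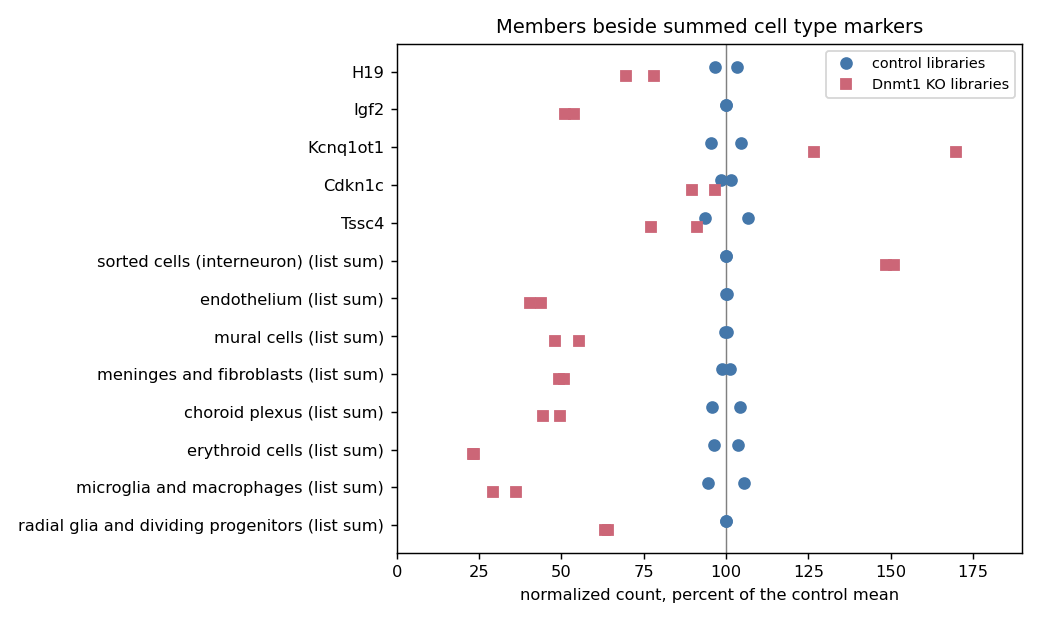
Normalized count of each of the 5 tested genes and summed count of each marker list, per library, as a percent of the control mean (x axis, from 0; control circles, *Dnmt1* KO squares). *Igf2*, at 52.5% in KO cells, lies beside the mural, meningeal and choroid plexus lists, and *H19* at 74.0% lies above them. *Kcnq1ot1* averaged 148% and the interneuron list 149.8%. The KO libraries of *Kcnq1ot1*, at 169.9% and 126.8%, lie on either side of those of the list, at 148.6% and 151%.

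The members were expressed at very different levels. Per kilobase of the longest annotated transcript, the control mean was 508 ± 11.6 normalized counts for *Cdkn1c*, 143 ± 13.1 for *Tssc4*, 127 ± 6.15 for *H19*, 27.8 ± 0.022 for *Igf2* and 8.85 ± 0.575 for *Kcnq1ot1* (SD, n = 2). *Tssc4* and *H19* lay within about 1 SD of each other, and the other neighbours in this order lay apart by more than their spread. The order held in KO cells, at 474, 120, 94.2, 14.6 and 13.1, where *Igf2* and *Kcnq1ot1* came within the SD of *Kcnq1ot1* (2.698). It depended on the transcript taken as the length. With the median transcript, of 2127.5 bases for *Kcnq1ot1*, *Kcnq1ot1* stood at 387 per kilobase in control cells, second to *Cdkn1c* at 529.5, and *Igf2* at 136 came close to *H19* at 150.2.

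The other tested genes in and around the cluster were not called, where limma called 17.3% of all genes tested. A list this short cannot be told apart from that share by 0 calls. Of 22 neighbours on distal chromosome 7, 10 were tested by limma and 0 were called, with 1 (*Lsp1*) at an unadjusted p below 0.05 and 0 called by edgeR or DESeq2. *Lsp1* was called lower without KO replicate 2. The list had a median log2 fold change of -0.04 against -0.003 over all genes tested. *Nap1l4*, a histone chaperone gene next to *Phlda2*, had a log2 fold change of -0.05 and *Cd81*, next to *Tssc4*, one of -0.03. The most negative value was that of *Lsp1*, a leukocyte gene beyond the 3′ end of *H19*, at -1.66 (limma adjusted p = 0.0949) from a control mean of 17.4 ± 5.67 and a KO mean of 5.90 ± 5.56. *Ins2* and *Ascl2*, imprinted genes that lie between *Igf2* and *Tssc4*, were listed at 0 in every library.

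**Figure D5:**
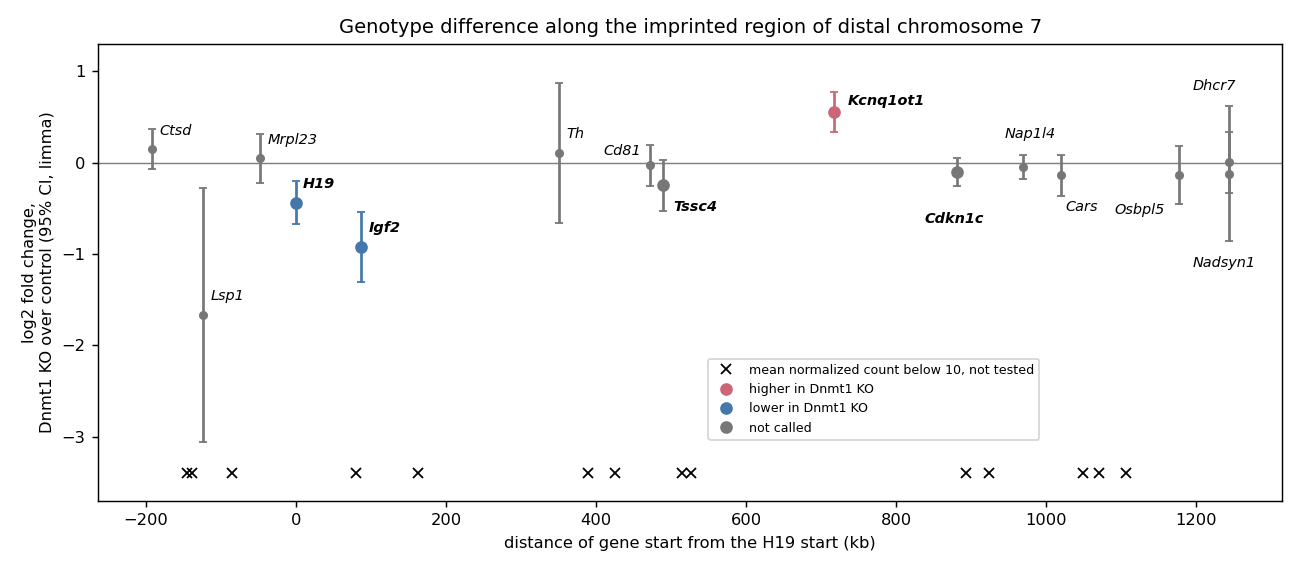
Log2 fold change with its 95% limma interval (y axis) against the distance of each gene's start from the *H19* start (x axis, kb), with the genes followed here in bold and crosses for genes too low to test. *H19* and *Igf2* lie below 0 at the left, *Kcnq1ot1* above 0 at 716 kb, and the intervals of the other genes tested overlap 0 apart from that of *Lsp1*, which was not called after adjustment.

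Genes of the pathway that IGF2 acts on were called in both directions. Of 21 genes listed for the IGF pathway, 18 were tested, 4 were called higher and 7 lower, with a median log2 fold change of -0.27. Over all genes tested, 8.3% were called higher and 8.99% lower. The endothelial, mural and progenitor marker sums given above, at 42.1%, 51.6% and 63.7% of control, moved with the genes that fell, and the interneuron sum, at 149.8%, with those that rose, and their part in these differences was not tested. *Igf1r*, the receptor that carries the growth signal of IGF2, rose from 1568 ± 27.2 to 1994 ± 110 (SD, n = 2; log2 fold change 0.35, limma adjusted p = 0.000981). *Igf2r*, the imprinted receptor that clears IGF2 from the cell surface, rose from 743 ± 84.7 to 903 ± 12.5 (0.29, limma adjusted p = 0.0267), but it was called in only 11 of 17 other settings, with log2 fold changes from 0.17 to 0.40. Binding proteins of IGF went both ways, with *Igfbp4* called higher (log2 fold change 0.44) and *Igfbp2* (-0.32), *Igfbp5* and *Igfbp7* called lower.

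Larger changes were seen among the genes that fell. *Igfbp5* went from 618 ± 39.0 to 302 ± 27.7 (log2 fold change -1.03, limma adjusted p = 4.61e-06) and *Igfbp7* from 43.8 ± 8.80 to 18.9 ± 8.17 (-1.22, limma adjusted p = 0.031). *Pappa2*, a protease that cuts IGF-binding proteins, fell by 1.43, and *Irs4*, an adaptor of the receptor, fell by 1.36 from a control mean of 44.9 ± 18.8. *Grb10*, an imprinted adaptor that restrains growth signalling, fell from 1431 ± 10.6 to 796 ± 68.6 (-0.85, limma adjusted p = 1.61e-06). The count of higher genes was 3 under DESeq2, under quantile scaling, without control replicate 2 and without KO replicate 2. The count of lower genes was 3 without control replicate 1 and 3 under DESeq2, and 6 once the length and GC trend had been removed.

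Of the CDK inhibitor genes other than *Cdkn1c*, 4 of 6 were tested and 0 were called by limma, edgeR or DESeq2. At an unadjusted limma p below 0.05 were 2 (*Cdkn1b* and *Cdkn2c*). Limma called 17.3% of all genes tested, a share from which 0 of 4 cannot be told apart. *Cdkn1b* (p27), the closest relative of *Cdkn1c*, had 619 and 642 in control and 736 and 699 in KO libraries, a log2 fold change of 0.19 (limma adjusted p = 0.122). *Cdkn1a* (p21) had 31.3 and 13.3 in control and 30.6 and 38.2 in KO libraries, which overlapped. Without KO replicate 1, 1 gene of this list was called lower, and with all libraries the most negative value was that of *Cdkn2c*, at -0.77 (limma adjusted p = 0.073).

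Factors that keep imprints or act with *Kcnq1ot1* in silencing were mostly not called, and those that limma called were lower. Of 16 listed, 14 were tested and 0 were called higher by limma, edgeR or DESeq2. By limma 4 of the 14 were lower, against 8.99% of all genes tested. The list had a median log2 fold change of -0.05. *Uhrf1*, the partner that brings DNMT1 to newly replicated DNA, fell from 551 ± 29.0 to 338 ± 1.97 (log2 fold change -0.70, limma adjusted p = 8.87e-05). *Eed* and *Ezh2*, subunits of the Polycomb complex PRC2, fell by 0.53 and 0.21, and *Hnrnpk*, an RNA-binding protein that links noncoding RNAs to Polycomb, fell by 0.17. *Zfp57* (0.13), *Trim28* (-0.004) and *Ctcf* (-0.08), which protect imprints or bind their control regions, were not called. The count of 4 went to 1 without control replicate 2, to 2 without control replicate 1, without KO replicate 2, under DESeq2 and once the length and GC trend had been removed. Dividing progenitor markers, which stood at 63.7% of control, moved in the same direction as *Uhrf1*, and their part in its difference was not tested.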

How the data were processed

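RNA sequencing of tdTomato-positive E14.5 cells was grouped by the sample labels into 2 control and 2 *Dnmt1* KO libraries. The authors used Trim Galore for trimming, STAR with GRCm39 for alignment, Salmon for gene quantification and DESeq2 for scaling, and deposited as signal a normalized count for every gene in each library. The values came out as whole reads (Salmon gives estimated counts, so these are rounded estimates) times 1 unit per library in 89965 of 89965 values (100%; tolerance 0.0001 of a read). Totals were 8376711 and 7276779 reads in control and 7744944 and 6970247 in KO libraries.

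Of 28067 genes with a read, 14323 had a mean of at least 10 and entered limma 3.58.1 (R 4.3.3, log2 of normalized count + 1, prior variance with a trend, genotype as the only term, Benjamini-Hochberg adjustment). The labels do not say whether replicates came from separate litters or sorts, so p-values cover no more than the spread between libraries of this set. In limma that spread combines the gene's own libraries with a trend over all genes tested. Each SD rests on 2 values of the gene itself. Positions and transcript lengths came from GENCODE for GRCm39, promoter and microRNA sequences from RefSeq on GRCm38.p6. Other settings were pseudocounts of 0.5 and 10, minimum means of 1 and 50, TMM and quantile scaling, limma with no variance trend, the count tests on the recovered reads (edgeR 4.0.16, DESeq2 1.42.0, limma-voom), subtraction of a spline over transcript length and GC content, a replicate block and omission of single libraries. DESeq2 on all genes with a read and the look at transcripts over 20 kb were chosen after seeing the data, as were the ratios without that spline or without single libraries. The steps were tested on simulated data.

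The members and gene lists were chosen with earlier results of these data known. Named were all 7 members, *Dnmt1*, *Sst*, *Kcnq1*, *Igf1r*, *Igf2r*, *Cdkn1a*, *Cdkn1b*, up to 6 called genes of each other list by size of change, and the 3 nearest patterns of each called member. All other genes in the text (such as *Lsp1*, *Cdkn2c*, *Zfp57*, *Nap1l4* and the long transcripts) were named after their values were seen. Of the 13 erythroid genes listed, 12 matched a row. The study's methylation data and the region upstream of *H19* were not analysed here.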

Additional observations from a re-analysis of the deposited data

How the results depend on the processing

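Of 17 other settings, *Tssc4* kept its direction and side of the threshold in 17, *Igf2* and *Cdkn1c* in 16, *Kcnq1ot1* in 14 and *H19* in 11. Limma without the variance trend called 0 genes of all tested (4323 had an unadjusted p below 0.05), so 0 of the members were called higher and 0 lower, with the log2 fold changes of *H19* (-0.44), *Igf2* (-0.92) and *Kcnq1ot1* (0.55) as before and adjusted p values of 0.139, 0.0592 and 0.195. DESeq2 on the recovered reads called 1327 genes, 0 members higher and 1 lower, with *H19* at -0.43 (adjusted p = 0.0963) and *Kcnq1ot1* at 0.57 (adjusted p = 0.0645). On all genes with a read it called 1176 genes and 1 member lower, with *H19* at -0.43 (adjusted p = 0.141), while *Kcnq1ot1* passed (adjusted p = 0.000358). With the trend over transcript length and GC content removed, 0 members were higher and 1 lower, *H19* stood at -0.33 (adjusted p = 0.0587), *Kcnq1ot1* at 0.079 (adjusted p = 0.608) and *Cdkn1c* changed sign to 0.031 (adjusted p = 0.813). The log2 ratio differences of *Kcnq1ot1* over *Cdkn1c*, *Tssc4* and *Igf2* went to 0.047, 0.173 and 0.888 (from 0.66, 0.80 and 1.48). The cause of these changes was not tested.

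Leaving out 1 library at a time, 1525 to 2205 genes were called (1525 without control replicate 2 and 1648 without control replicate 1), against 2476 with all 4. Members called lower ranged from 1 to 2 and members called higher stayed at 1. The log2 fold change ranged from -0.52 to -0.35 for *H19*, from -0.96 to -0.88 for *Igf2*, from 0.34 to 0.77 for *Kcnq1ot1*, from -0.16 to -0.05 for *Cdkn1c* and from -0.37 to -0.13 for *Tssc4*. The ratio differences ranged from 0.39 to 0.92 (*Kcnq1ot1* over *Cdkn1c*), 0.47 to 1.13 (over *Tssc4*), 1.22 to 1.73 (over *Igf2*), 0.36 to 0.61 (*H19* over *Igf2*) and 0.029 to 0.26 (*Cdkn1c* over *Tssc4*). The remaining single library of a genotype was then assumed to vary like the others. Labels gave replicates 1 and 2 in each genotype, but deviations of same-numbered libraries did not go together (correlation -0.085 over 14323 genes). A single correlation over all genes cannot exclude a shared sort or litter, so whether the libraries were paired is not known. With the replicate block 2957 genes were called and the members had 1 call higher and 2 lower as before, while 1 neighbour (*Lsp1*) and 1 CDK inhibitor (*Cdkn2c*) were called lower, which they were not in the fit of the same 4 libraries without the block. Depth limits *Phlda2* and *Slc22a18*, at 0 or 1 read per library.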

Other observations

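Among 8418 genes with a mean of at least 100, those nearest to each called member were found from the distance between centred log2 values over the 4 libraries, which is a description with no test. Nearest to *H19* were *Paics*, an enzyme of purine synthesis (log2 fold change -0.43), *Haus7*, a part of the spindle complex augmin (-0.43), and *Fbln1*, a matrix protein (-0.41, not called, limma adjusted p = 0.0834). *Paics* had normalized counts of 690 and 642 in control and 522 and 468 in KO libraries, close to the pattern of *H19* at a higher level. Nearest to *Igf2* were the transcription factor genes *Sox5* (-0.88), *Sall3* (-0.95) and *Zfhx4* (-0.98). *Sox5* went from 753 and 786 to 402 and 430.5. Nearest to *Kcnq1ot1* were *Ankrd34a* (0.50), *Rhobtb1* (0.59) and *Cacnb4*, a subunit of neuronal calcium channels (0.58). Each of these was higher in KO replicate 1 than in KO replicate 2, as *Kcnq1ot1* was, and *Cacnb4* had 221 and 212 in control and 351 and 300.5 in KO libraries. Likeness to the member in fold change and in replicate order follows from the choice by distance.

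Of the 17 tested genes with an annotated transcript over 20 kb, 9 were called higher and 1 lower, with a median log2 fold change of 0.36. *Kcnq1ot1* was 1 of 7 with a value of at least its own. Of the others, *Neb* (1.503), *Pclo* (0.58), which encodes a presynaptic scaffold, and *Grin2b* (0.58), an NMDA receptor subunit, were called higher and *Zbtb20*, a transcription factor gene, was called lower (-0.37). The other long noncoding RNAs of this group went both ways. *Gm45159* was called higher (log2 fold change 0.80, limma adjusted p = 0.0325). *Neat1*, which has a known nuclear role, had a log2 fold change of -0.29 and was not called (limma adjusted p = 0.670).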
